A study of Mus musculus with 24 samples.

Results

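The comparison concerns the 6 control cultures of an array study of mouse embryonic stem (ES) cells and asks how far wild-type cultures differed from each other. Control biological replicates 4, 5 and 6 were set against control biological replicates 1, 2 and 3, so 6 of 24 arrays carry the comparison. All 6 were titled as control ES cells. Other label fields record undifferentiated cells of strain 129/Sv with 7 CAG repeats on each allele of Hdh, the older name of Htt, the huntingtin gene. The 6 knock-out arrays, of cells of the same strain with both Hdh alleles recorded as null, carry the same numbers 4 to 6 and 1 to 3 and were used for comparison. The other 12 arrays are 4 knock-in lines of 3 arrays each with 7 repeats on 1 allele, and they entered the choice of probe sets only, with their means given for a few genes. Their longer alleles carried 16 (Q20), 45 (Q50, with 43 in its replicate 3), 85 (Q91) and 111 (Q111) repeats. The description field of the labels calls the control arrays cells lacking Hdh and the knock-out arrays controls, which contradicts titles and genotypes. Whether replicates were clones or parallel cultures, and what separates numbers 1 to 3 from 4 to 6 (a date, a passage or a hybridization), is stated by no source used here. P-values therefore measure only the spread between these arrays.

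Mouse ES cells are derived from the inner cell mass and stay undifferentiated under leukaemia inhibitory factor (LIF), which acts through STAT3, together with signals such as BMP that induce the Id genes. Pou5f1 (Oct4), Sox2 and Nanog form the core of the pluripotency network. Other genes, Dppa3 (Stella) among them, switch on and off between cells of a single culture. Cultures of wild-type ES cells are also known to drift, with changes in DNA methylation and imprinting, gain of chromosomes such as 8 and 11, and loss of the Y chromosome. In these bulk samples, fewer cells that express a gene and less RNA per cell cannot be told apart.

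Of 45101 probe sets on each array, 17980 reached a log2 value of 5 on at least 3 of the 24 arrays and were tested. They represented 9511 genes, each by its probe set with the highest mean. Replicate 4 stood apart from the other controls. Its median over the tested probe sets was 8.25, against 8.57 and 8.50 in replicates 5 and 6 and 8.53 to 8.55 in replicates 1 to 3. The shortfall depended on level: replicate 4 was lower than the mean of replicates 1 to 3 by a median of 0.29 at levels between 7.38 and 8.54, but by 0.02 below 5.93 and 0.04 above 11.04. The 3' to 5' differences of the Actb and Gapdh control probe sets in replicate 4, 0.82 and 0.05, lay within the 0.75 to 1.02 and 0.01 to 0.09 of the other controls. Correlations across probe sets were 0.979 to 0.982 between replicate 4 and replicates 5 and 6, 0.993 between replicates 5 and 6, and 0.995 among replicates 1 to 3. Counts are therefore given with and without replicate 4, as are the differences of the genes and gene groups described most closely.

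**Figure D1:**
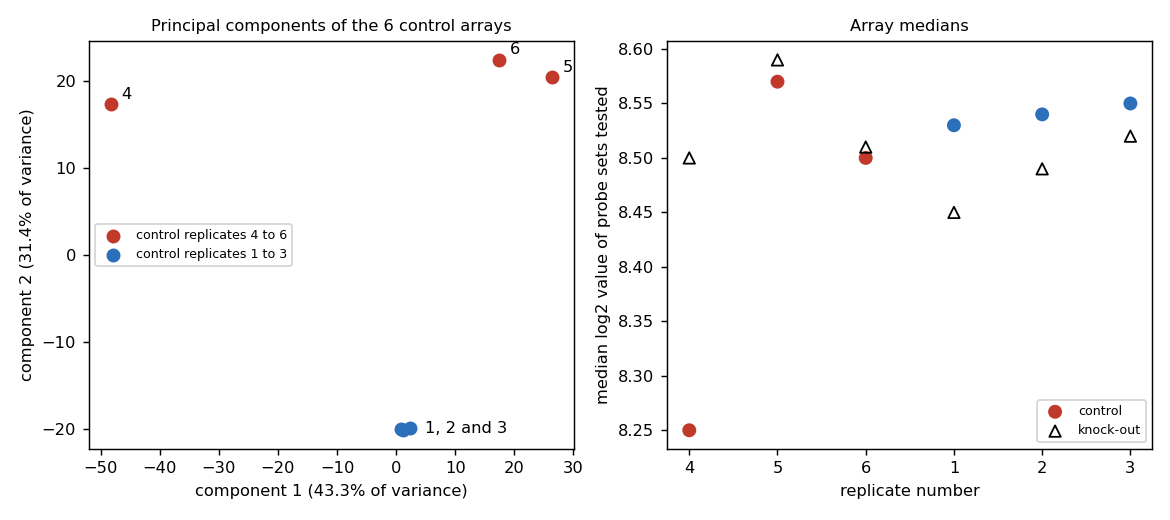
Left: principal components 1 and 2 of the 6 control arrays over the tested probe sets, with replicate numbers beside the points. Right: median log2 value of the tested probe sets on each control array (filled) and knock-out array (open triangles). Component 1 (43.3% of the variance) sets replicate 4 apart and component 2 (31.4%) sets replicates 4 to 6 apart from 1 to 3; the median of control replicate 4 is 8.25.

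A second property of the deposited values bears on every difference below. The change from set 1 to 3 to set 4 to 6 in controls and the same change in knock-outs, which share no array, were close to mirror images: across the 17980 probe sets Pearson's r was -0.86 and Spearman's rho -0.83 (-0.70 and -0.61 without control replicate 4). Genes are not independent replicates, so no p is attached. The set change averaged over controls and knock-outs had a standard deviation of 0.07 over probe sets, against 0.29 for the control change and 0.27 for the knock-out change. With limma's moderated test, 0 probe sets (0%) passed an adjusted p of 0.05 for that average, and 54 (0.30%) had an unadjusted p under 0.05. The corresponding unadjusted shares were 14.5% for the control change alone and 11.8% for the knock-out change. With independent arrays and no shared change, a share of about 0.05 of probe sets would have such a p. The 0.30% for the average lay well below that. The SD of the average, 0.07, was also smaller than its median standard error of 0.11. Why the average was so narrow was not tested. Without control replicate 4, 1 probe set passed for the average.

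The mirror image reached probe sets near the bottom of the scale. Uba1y, a Y-linked ubiquitin-activating enzyme gene, had 6.71, 7.88 and 7.80 in control replicates 4, 5 and 6, against 5.29, 5.27 and 5.26 in control replicates 1, 2 and 3. In knock-outs it had 3.48, 3.48 and 3.53 in replicates 4 to 6 and 5.35, 5.37 and 5.37 in replicates 1 to 3. The values of control and knock-out replicates 1 to 3 thus lay within 5.26 to 5.37, and the replicates 4 to 6 departed from them in opposite directions. Cubn, encoding the endocytic receptor cubilin, had 5.44 and 5.21 in control replicates 5 and 6 but 2.19 in replicate 4, against 2.86, 2.81 and 2.81 in control replicates 1 to 3. Its knock-out values were 1.76, 1.79 and 1.75 in replicates 4 to 6, against 3.03, 3.04 and 3.03 in replicates 1 to 3. For scale, among 22519 probe sets under 4 on all 24 arrays, 98 in 100 had a knock-out change between -0.18 and 0.14. No source used here says whether values were adjusted between sets before deposit, and this was not tested. The genes named below are therefore those at which the deposited values differed between the sets. How much of a difference at a given gene, from none to all of it, belongs to the control cultures cannot be told apart from the share of the knock-out cultures.

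**Figure D2:**
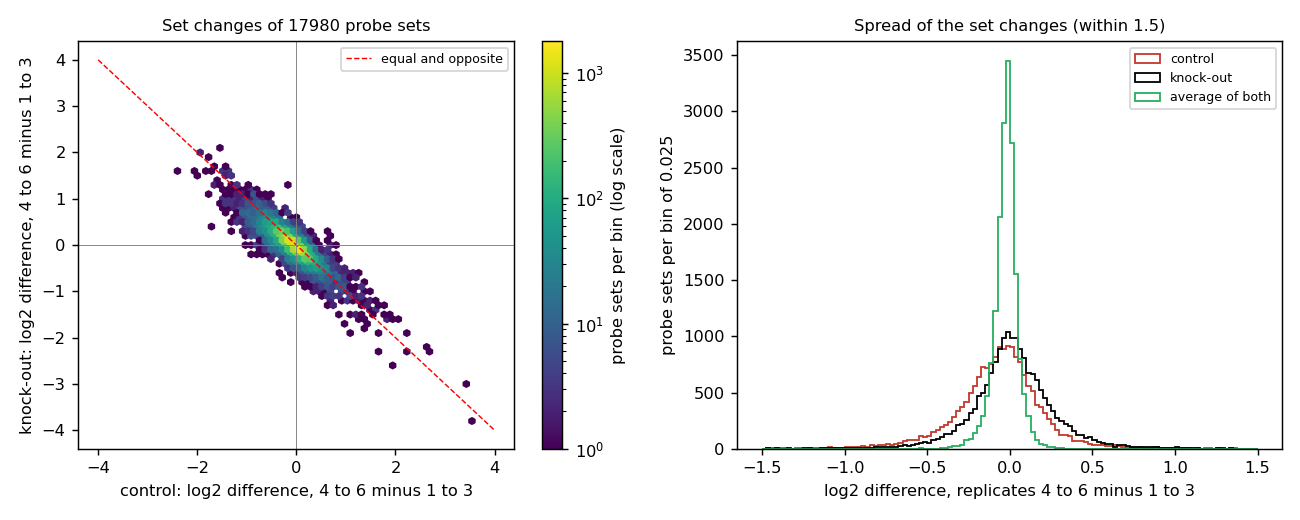
Left: for each tested probe set, the log2 difference of replicates 4 to 6 minus 1 to 3 in controls (x) and in knock-outs (y), with shading for probe sets per bin on a log scale and a dashed line for equal and opposite changes. Right: histograms of the control change, the knock-out change and their average. The points follow the dashed line (r = -0.86), and the average is much narrower (SD 0.07) than either change (0.29 and 0.27).

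In the limma fit of the 12 control and knock-out arrays, 263 of 17980 probe sets (1.46%) differed between control replicates 4 to 6 and 1 to 3 at an adjusted p under 0.05. Of these, 73 were higher and 190 lower in replicates 4 to 6, and 98 differed at least 2-fold. The split followed the scaling: it was 136 higher and 156 lower after quantile normalization, and 167 and 120 after median centring. In the same fit 175 probe sets (0.973%) differed between knock-out replicates 4 to 6 and 1 to 3, 102 of them higher and 73 lower. The 2 set changes differed from each other at 1402 probe sets (7.8%), with 482 more positive and 920 more negative in controls, or 817 and 815 after quantile normalization and 983 and 636 after median centring. As both changes were near mirror images, that test largely repeats the control change at a larger size. All 73 higher control probe sets and 189 of the 190 lower ones had the opposite sign in knock-outs, and 0 were called the same way there.

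Without control replicate 4 the count was 1105 probe sets (6.15%), 594 higher and 511 lower in replicates 5 and 6, which held 261 of the 263. The count depended on single arrays: it was 85 without control replicate 1, 78 without replicate 2, 93 without replicate 3, 190 without replicate 5 and 116 without replicate 6. The larger count was 569, 580 and 585 without replicates 1, 2 and 3, and 338 and 331 without replicates 5 and 6. Fitted with all 24 arrays, the counts were 15 and 30, and with the control arrays alone 59 and 1011. By genes, 44 (0.463%) were higher and 117 (1.23%) lower in replicates 4 to 6, and 352 (3.7%) were higher and 300 (3.15%) lower in replicates 5 and 6.

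The core of ES cell identity did not separate the sets. Pou5f1 had 14.68, 14.49 and 14.57 in control replicates 4, 5 and 6, against 14.49, 14.74 and 14.47 in replicates 1, 2 and 3, a difference of 0.01 ± 0.10 (SE; adjusted p = 0.976). The sets overlapped for it, as they did for Sox2 (-0.01 ± 0.10) and Nanog (0.00 ± 0.10). Of 13 measured genes of the core pluripotency list none was called with or without replicate 4, with list medians of 0.01 and 0.05 against all-gene medians of -0.06 and -0.01. By the probe set that stood for each gene, none of 41 measured oxidative phosphorylation genes and none of 14 measured DNA methylation genes was called in either comparison. A further probe set of Dnmt3a, a de novo DNA methyltransferase, was called in replicates 5 and 6 (-0.91, adjusted p = 0.0238). Of 16 naive pluripotency genes, Dppa3 was higher and Tfcp2l1 lower by the probe set that stood for each. Nr5a2 of that list was not called by that probe set in replicates 4 to 6 (-0.47, adjusted p = 0.182). A further probe set of Nr5a2 was called lower there (-0.59, adjusted p = 0.0271). Of differentiation markers, 8 of 18 primitive endoderm, 7 of 12 trophoblast, 4 of 10 neuroectoderm, 2 of 10 mesoderm, 0 of 7 definitive endoderm and 12 of 20 fibroblast genes passed the filter. The endoderm regulators Gata4, Gata6 and Sox17 stayed at or below 3.07 on all arrays, and the fibroblast matrix genes Dcn, Lum and Postn at or below 3.11. None of the measured fibroblast, mesoderm and primed epiblast genes was called in replicates 4 to 6. Vim (vimentin) fell by 0.64 in replicates 5 and 6, and Fgfr2 of the trophoblast list rose by 1.04 ± 0.19 in replicates 4 to 6, a call lost without replicate 1, 2, 5 or 6.

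The largest rise was that of Dppa3, which encodes a maternal factor that protects DNA methylation marks in the early embryo. It had 7.50, 9.12 and 8.92 in control replicates 4, 5 and 6, against 4.43, 5.21 and 5.27 in replicates 1, 2 and 3. Genes named as the largest rises and falls were chosen among those whose sets did not overlap, which held for 19.8% of all tested probe sets. The difference of Dppa3 was 3.54 ± 0.37 (SE) or 11.6-fold (adjusted p = 0.00101), and without replicate 4 it was 4.04 ± 0.24. In knock-outs it ran the other way, with 3.80, 3.63 and 3.35 in replicates 4 to 6 against 7.25, 7.41 and 7.52 in replicates 1 to 3 (adjusted p = 0.000611). The control and knock-out changes differed by 7.34 (adjusted p = 2.27e-05). Among the knock-in lines, Q20 averaged 10.71, Q50 9.33 and Q111 9.85, all above the control arrays, while Q91 lay between control replicates 5 and 6.

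Pnma5, an X-linked gene of the paraneoplastic antigen family, had 5.82, 6.50 and 6.38 in control replicates 4, 5 and 6, against 3.59, 3.53 and 3.74 in replicates 1, 2 and 3 (difference 2.61 ± 0.17, adjusted p = 3.06e-05). Aass, an enzyme of lysine breakdown, had 7.83, 9.22 and 9.12 against 6.38, 6.54 and 6.60 (2.22 ± 0.39, adjusted p = 0.0201). Without replicate 4 the differences were 2.82 ± 0.12 for Pnma5 and 2.66 ± 0.32 for Aass. The germline-associated genes Smc1b, a meiotic cohesin subunit, and Usp17la, a deubiquitinase, rose by 2.03 ± 0.42 and 1.84 ± 0.15. Pnma5, Smc1b and Usp17la, like Uty and Gm21283 below, were under 4 in replicates 1 to 3, so the size of their rise is not settled. Rhox5, an X-linked homeobox gene, rose by 1.38 ± 0.10, with 12.63, 12.51 and 12.40 in replicates 4, 5 and 6 against 11.03, 11.13 and 11.26 in replicates 1, 2 and 3 (adjusted p = 7.07e-05, and 1.32 ± 0.10 without replicate 4). Klhl13, an X-linked adaptor of a ubiquitin ligase, rose by 1.52 ± 0.16 and on its second probe set by 1.78. Myh3, an embryonic myosin heavy chain (1.62 ± 0.25), Ier3, an immediate early gene (1.61 ± 0.30), and Gm21283 on chromosome 8 (1.62 ± 0.29) completed the rises outside the Y chromosome and the imprinted list. When each of the 6 control arrays was left out in turn, 7 of the 13 largest rises kept their call every time: Dppa3, Pnma5, Uba1y, Usp17la, Uty, Sfmbt2 and Klhl13.

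**Figure D3:**
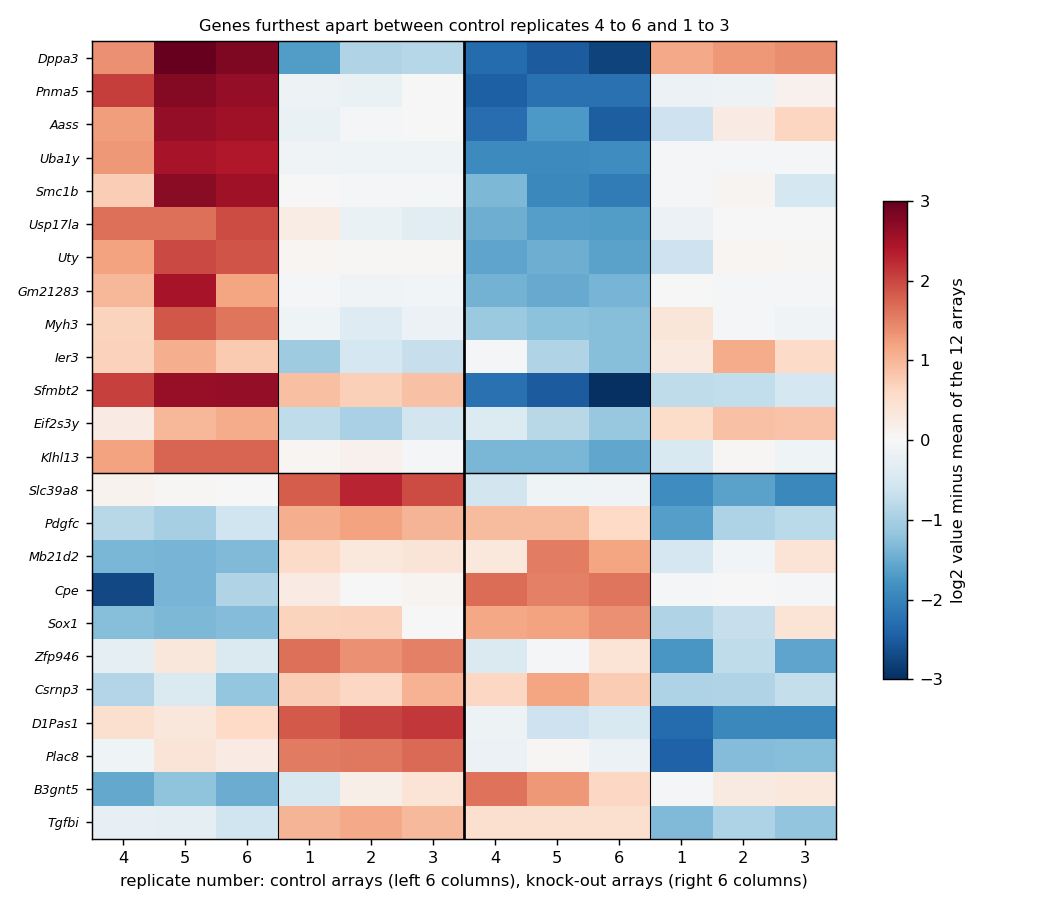
Heat map of the reported genes with the largest rises (above the horizontal line) and falls (below it) between control replicates 4 to 6 and 1 to 3. Columns are control replicates 4 to 6 and 1 to 3, then knock-out replicates 4 to 6 and 1 to 3, and colour is the log2 value minus the mean of the 12 arrays. Genes higher in control replicates 4 to 6 than in 1 to 3 run the other way in knock-outs, as for Dppa3 with a difference of 7.34 between both changes.

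Y-linked genes were higher in replicates 4 to 6 by the probe set that stood for each. Eif2s3y, a translation initiation factor subunit, had 9.48, 10.23 and 10.35 in control replicates 4, 5 and 6, against 8.47, 8.26 and 8.68 in replicates 1, 2 and 3 (1.55 ± 0.24, adjusted p = 0.0105). Uty, a Y-linked relative of a histone demethylase, rose by 1.65 ± 0.22 and Uba1y by 2.19 ± 0.24. The probe sets of Uty disagreed: another rose by 1.18 (adjusted p = 0.0176), while a further probe set gave 0.05 (adjusted p = 0.921). Without replicate 4 the differences were 1.82 for Eif2s3y, 1.89 for Uty and 2.57 for Uba1y. These 3 were all the Y-linked genes measured, and each was opposite in knock-outs, where Eif2s3y fell by 1.56, Uty by 1.38 and Uba1y by 1.87. The call of Eif2s3y was lost without control replicate 1 or 2. Xist, the RNA of X inactivation, was not called (-0.64, adjusted p = 0.364).

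The largest fall was that of Slc39a8, a zinc and manganese importer, with 4.33, 4.26 and 4.24 in control replicates 4, 5 and 6, against 6.05, 6.50 and 6.19 in replicates 1, 2 and 3 (-1.97 ± 0.15, adjusted p = 0.000118). Replicates 4 to 6 were under 5, the filter level, so the size of this fall is not settled. Its second probe set, which averaged 2.91, showed -0.07. Pdgfc, a platelet-derived growth factor, had 8.28, 8.12 and 8.53 against 10.20, 10.32 and 10.14 (-1.91 ± 0.20, adjusted p = 0.00103), and its second probe set gave -1.45. Tgfbi, a matrix protein induced by TGF-beta, had 8.43, 8.41 and 8.09 against 9.71, 9.81 and 9.66 (-1.42 ± 0.12, adjusted p = 0.000265), and its 3 other probe sets fell by 1.30 to 1.77. Without replicate 4 the differences were -1.90 ± 0.23 for Pdgfc and -1.47 ± 0.13 for Tgfbi. Sox1, a neural transcription factor, fell by 1.76 ± 0.29, to 4.84 to 4.90 in replicates 4 to 6 against 6.17 to 6.88 in replicates 1 to 3. It was the called member of 4 measured neuroectoderm genes.

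Cpe, a neuropeptide-processing enzyme (-1.77 ± 0.34), Plac8 (-1.45 ± 0.26), B3gnt5, a glycosyltransferase of glycolipid synthesis (-1.45 ± 0.27), and D1Pas1, an RNA helicase gene (-1.52 ± 0.15), fell as well. Mb21d2 (-1.78 ± 0.29), Zfp946 (-1.64 ± 0.29) and Csrnp3 (-1.62 ± 0.20) fell to means below 6. All 12 of the largest falls were positive in knock-outs, by 1.00 to 1.96. Slc39a8, Pdgfc, Csrnp3, D1Pas1 and Tgfbi kept their calls when each control array was left out in turn, and the other 7 lost it without at least 1 of replicates 1, 2, 3, 5 and 6.

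Among 12 measured LIF-STAT3 and BMP-Id genes, 3 fell and none rose, with a list median of -0.35 (-0.25 without replicate 4). Over all genes 1.23% were called lower in replicates 4 to 6. Id1, an inhibitor of differentiation induced by BMP, had 9.70, 9.40 and 9.13 in control replicates 4, 5 and 6, against 10.70, 10.79 and 10.93 in replicates 1, 2 and 3 (-1.40 ± 0.15, adjusted p = 0.00103). Junb, an AP-1 subunit, fell by 0.95 ± 0.12 and Tfcp2l1, a naive transcription factor, by 0.46 ± 0.10. Without replicate 4 the differences were -1.54, -0.91 and -0.41. Id1 and Junb kept their calls when each control array was left out in turn, and Tfcp2l1 lost its call without any 1 of replicates 1, 2, 3, 5 and 6. Socs3 and Klf4, which LIF also induces, differed by 0.10 ± 0.11 and 0.03 ± 0.14 and were not called. In knock-outs Id1 and Junb were higher in replicates 4 to 6, by 1.25 and 0.79.

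Some Wnt targets and D-type cyclins were lower. Over all genes 1.23% were called lower in replicates 4 to 6 and 3.15% in replicates 5 and 6. Of 6 measured Wnt targets, Ccnd1 (cyclin D1) fell by 0.54 ± 0.09 in replicates 4 to 6, and Myc and Axin2 were added without replicate 4. The 3 falls in replicates 5 and 6 became 1 without replicate 1, 2, 5 or 6, 2 without replicate 3 and 0 with all 24 arrays in the fit. Ccnd2 (cyclin D2) fell by 1.01 ± 0.21 and, with Ccnd1, made up the 2 falls among 31 measured cell cycle genes, of which none rose. Without replicate 1, 2, 3 or 6 this count was 0, and without replicate 5 it was 1. Without replicate 4 Ccnd1 and Ccnd2 differed by -0.61 and -1.24. The calls of Ccnd1, Ccnd2, Tfcp2l1 and Mest were lost after median centring. Myc had 8.18 and 8.02 in replicates 5 and 6, but 10.32 in replicate 4, against 10.04, 10.03 and 9.81 in replicates 1 to 3. Replicate 4 was therefore with replicates 1 to 3, and Myc was lower by 1.86 ± 0.44 in replicates 5 and 6 (adjusted p = 0.0385), but was not called with replicate 4 included (adjusted p = 0.421).

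Of 22 measured imprinted genes 1 rose and 2 fell, against 0.463% and 1.23% of all genes. For replicates 5 and 6 the all-gene shares were 3.7% and 3.15%. Sfmbt2, a Polycomb-related gene expressed from the paternal allele, had 9.19, 9.74 and 9.76 in control replicates 4, 5 and 6, against 7.85 to 8.02 in replicates 1 to 3 (1.61 ± 0.20, adjusted p = 0.0028). Grb10, a growth inhibitor acting on insulin signalling, fell by 1.03 ± 0.11, and Mest, a paternally expressed hydrolase-like gene, fell by 0.72 ± 0.13. Mest had 10.86, 10.67 and 10.72 in replicates 4, 5 and 6, against 11.49, 11.49 and 11.43 in replicates 1, 2 and 3, while all knock-out arrays lay between 2.83 and 3.73. The call of Mest was lost without any 1 of replicates 1, 2, 3, 5 and 6, while those of Sfmbt2 and Grb10 were kept. Without replicate 4 these 3 differed by -0.78 (Mest), 1.80 (Sfmbt2) and -1.09 (Grb10), and Nnat (1.69) and Impact (0.47) rose as well and Phlda2 fell by 0.56. The 3 falls in replicates 5 and 6 became 1 without replicate 5 or 6. With all 24 arrays in the fit, 0 imprinted genes were called in replicates 5 and 6 in either direction.

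In replicates 5 and 6 further genes differed from replicates 1 to 3, and replicate 4 lay outside the range of these 2 at each gene named here. Srgn, a proteoglycan core protein, had 7.14 and 6.92 in replicates 5 and 6 but 2.93 in replicate 4, against 3.87, 3.83 and 3.82 in replicates 1, 2 and 3. Nrp2, a semaphorin and VEGF co-receptor, had 9.91 and 9.84 in replicates 5 and 6 and 7.49 in replicate 4, against 7.45, 7.71 and 7.19. Its second probe set gave 0.08, so its probe sets disagreed. Crxos and Diaph2, a formin, rose by 2.46 ± 0.26 and 2.04 ± 0.29. Ttn (titin) fell by 2.16 ± 0.27, Anxa1 (annexin A1) by 1.72 ± 0.33, Eya1 by 1.63 ± 0.20 and Glis2 by 1.60 ± 0.16. Second probe sets were not called for Ttn (-0.47), Glis2 (-0.52) and Diaph2 (0.34). Replicate 4 lay within replicates 1 to 3 for Ttn, Anxa1, Eya1 and Diaph2, but not for Crxos (4.31 against 3.53 to 3.74) or Glis2 (7.87 against 8.56 to 8.99). Glis2 was also called with replicate 4 included (-1.35, adjusted p = 0.00964). Over all 594 probe sets higher in replicates 5 and 6, replicate 4 lay above all of replicates 1 to 3 at 31.8%, against 3424 of all 17980 tested probe sets. For the 511 lower ones it lay below all of them at 74.4%, against 54.4%. After median centring the shares were 65.2% against 51.6% and 49.3% against 24.2%.

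Genes of the hypoxia response were among those higher in replicates 5 and 6. Under low oxygen, hypoxia-inducible factor binds sites with the core ACGTG or GCGTG and induces glucose uptake, glycolysis, collagen modification and the prolyl hydroxylases that in turn limit the factor itself. Of 21 measured genes of the list, 10 were higher in replicates 5 and 6 and none was lower, with a median of 0.68 against -0.01 over all genes. Over all genes 3.7% were called higher there. With replicate 4 included, 2 were called and the median was 0.44. Upstream windows of the 3 genes with the smallest p are shown because they hold copies of that core. They cover the 250 bases before the annotated start (RefSeq, GRCm38.p6), all on the minus strand, at chr7:138909507-138909756 for Bnip3, chr12:54203875-54204124 for Egln3 and chr10:59951771-59952020 for Ddit4. Capitals mark ACGTG and GCGTG on either strand (CACGT and CACGC on the other), where CACGTG holds overlapping copies.
Bnip3: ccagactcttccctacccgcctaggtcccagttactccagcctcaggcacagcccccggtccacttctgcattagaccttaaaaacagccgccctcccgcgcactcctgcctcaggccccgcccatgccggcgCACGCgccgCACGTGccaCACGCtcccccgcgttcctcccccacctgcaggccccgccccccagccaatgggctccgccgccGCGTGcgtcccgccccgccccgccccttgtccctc
Egln3: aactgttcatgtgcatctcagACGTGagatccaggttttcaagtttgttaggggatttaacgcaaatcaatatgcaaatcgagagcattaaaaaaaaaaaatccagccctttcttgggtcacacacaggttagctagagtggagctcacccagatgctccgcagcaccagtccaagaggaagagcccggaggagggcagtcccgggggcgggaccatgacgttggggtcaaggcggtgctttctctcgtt
Ddit4: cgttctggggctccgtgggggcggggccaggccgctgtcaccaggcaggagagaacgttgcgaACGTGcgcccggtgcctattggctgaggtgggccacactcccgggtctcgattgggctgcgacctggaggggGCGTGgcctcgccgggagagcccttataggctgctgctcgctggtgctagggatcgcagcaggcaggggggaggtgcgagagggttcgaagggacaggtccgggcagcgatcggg
All 8 called genes with a promoter entry held at least 1 copy in that window, as did 7 of the 9 other measured list members with an entry and 38.6% of all 32851 entries. A match describes the letters and shows no binding.

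Bnip3, a mitophagy receptor, had 10.29 and 10.26 in control replicates 5 and 6 and 9.39 in replicate 4, against 8.54, 8.46 and 8.88 in replicates 1, 2 and 3. It was higher by 1.65 ± 0.19 in replicates 5 and 6 (adjusted p = 0.00154) and by 1.35 ± 0.24 in all 3 (adjusted p = 0.0244), with no overlap. Ddit4, an inhibitor of mTORC1, had 10.06 and 9.84 and, in replicate 4, 9.04, against 8.04, 8.69 and 8.23 in replicates 1, 2 and 3. It rose by 1.63 ± 0.24 in replicates 5 and 6 (adjusted p = 0.00505). The oxygen-sensing hydroxylases Egln3 and Egln1 rose by 1.61 ± 0.19 and 0.82 ± 0.19 in replicates 5 and 6. Replicate 4 lay within or below replicates 1 to 3 for both. The collagen hydroxylases P4ha1 (0.64 ± 0.14), P4ha2 (0.80 ± 0.19) and Plod2 (0.74 ± 0.17), the glucose transporter Slc2a1 (0.53 ± 0.09), the mitochondrial kinase Ak4 (0.91 ± 0.14) and the repressor Bhlhe40 (1.51 ± 0.36) completed the group. Vegfa had 0.68 ± 0.24 and was not called (adjusted p = 0.123).

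Of 16 measured glycolysis genes 7 were higher in replicates 5 and 6 and none lower, with a median of 0.38. The share of all genes called higher was 3.7%. Aldoc, an aldolase, had 8.15 and 8.33 in replicates 5 and 6 and 6.43 in replicate 4, against 6.55, 7.26 and 6.69 in replicates 1, 2 and 3 (1.41 ± 0.21, adjusted p = 0.00589). Tpi1 rose by 0.88 ± 0.15, Pfkl by 0.73 ± 0.11, Hk2 by 0.44 ± 0.11, Aldoa by 0.46 ± 0.10 and the lactate exporter Slc16a3 by 1.10 ± 0.26. None was called with replicate 4 included. Ldha and Pgk1, with 0.20 ± 0.08 and 0.38 ± 0.10, were not called by the probe set that stood for each. The probe sets of Pgk1 disagreed: another was called (0.50, adjusted p = 0.0143), while a further probe set was not (0.44, adjusted p = 0.0782). Knock-outs had 0 called members of either list, against 1.17% of all genes called there, with medians of -0.32 for hypoxia and -0.14 for glycolysis. The hypoxia count was 7 without each of replicates 1, 2 and 3 and 4 without replicate 5 or 6. The glycolysis count was 4, 5 and 5 without replicates 1, 2 and 3, 2 without replicate 5 and 0 without replicate 6. With all 24 arrays in the fit both counts were 0.

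**Figure D4:**
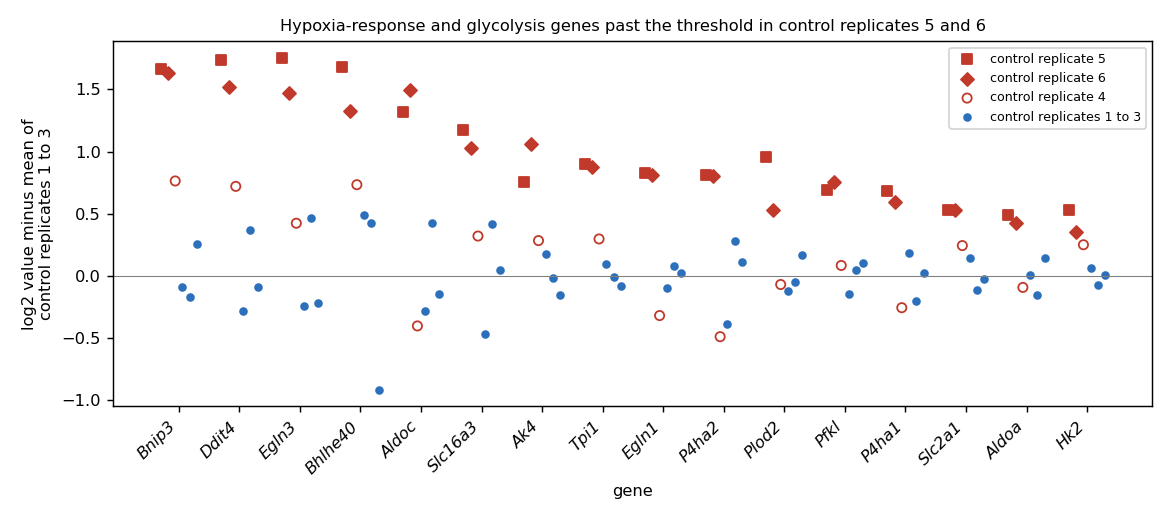
Log2 value minus the mean of control replicates 1 to 3 for the hypoxia-response and glycolysis genes past the threshold in control replicates 5 and 6, ordered by size. Filled red symbols are replicates 5 and 6, open circles replicate 4 and blue points replicates 1 to 3. Replicates 5 and 6 lie above replicates 1 to 3 for each gene shown, while replicate 4 falls among or below them for several, such as Aldoc (6.43).

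Of 14 measured p53 targets 5 were higher in replicates 5 and 6 and none lower (median 0.37), against 3.7% of all genes higher and 3.15% lower. Ccng1 (cyclin G1) had 12.32 and 12.30 in replicates 5 and 6 and 11.73 in replicate 4, against 11.63, 11.70 and 11.70 in replicates 1, 2 and 3 (0.63 ± 0.09, adjusted p = 0.00483). The others were Trp53inp1 (0.80), Bbc3, a death-promoting BCL2-family gene (0.76), Plk2 (1.26) and Eda2r (0.60). Cdkn1a and Mdm2, the usual markers of p53 activity, had 0.03 ± 0.13 and 0.34 ± 0.14 and were not called. The p53 count was 4, 3 and 4 without replicates 1, 2 and 3 and 2 without replicate 5 or 6. With all 24 arrays in the fit it was 0.

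Of 8 measured primitive endoderm genes 4 were called higher in replicates 5 and 6 and none lower (median 0.68). Over all genes 3.7% were called higher there and 3.15% lower. Lrp2 of the same list was lower, and its second probe set was called (-1.51, adjusted p = 0.0101). With the control arrays alone or with array weights, 1 list member was called lower. The 4 higher genes were Cubn and 3 basement-membrane genes. Col4a1 had 9.14 and 9.13 in replicates 5 and 6 and 7.69 in replicate 4, against 7.84, 7.82 and 7.97 in replicates 1, 2 and 3 (1.26 ± 0.16, adjusted p = 0.00208). The count of higher genes was 4 without each of replicates 1, 2, 3, 5 and 6, and 0 with all 24 arrays in the fit. Col4a2 rose by 1.73 ± 0.18 and Lama1 by 0.98 ± 0.13. The lineage regulators were not detected at the filter level, as given above. Further calls in replicates 5 and 6 were scattered. Of 24 autophagy and lysosome genes 4 rose (Sqstm1, Ctsd, Ctsz and Hexa) and Gabarapl2 fell. The 4 rises became 2 without replicate 1, 2 or 3, 1 without replicate 5 and 0 without replicate 6. Of 10 starvation genes Txnip (1.16), Ccng2 (1.25) and Ddit4 rose. These 3 became 2 without replicate 1 or 3 and 1 without replicate 2, 5 or 6, and with all 24 arrays in the fit both counts were 0. Inhbb, an activin subunit, fell by 1.20, and Mt1 (metallothionein 1) rose by 1.09.

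Gene location also separated the sets. Relative to the median of all genes, the 526 measured genes of chromosome 1 had medians of -0.15, -0.18 and -0.20 in control replicates 4, 5 and 6. The 335 genes of chromosome 14 had -0.19, -0.15 and -0.13, and the 801 genes of chromosome 11 had 0.12, 0.21 and 0.20. Replicates 4, 5 and 6 thus shifted the same way on each of these chromosomes. In replicates 5 and 6, 64 genes of chromosome 1 were lower (12.2%) and 10 higher (1.9%). On chromosome 14, 30 were lower (9.0%) and 3 higher (0.9%). On chromosome 11, 90 were higher (11.2%) and 9 lower (1.1%). Over all genes 3.7% were higher and 3.15% lower. Chromosome 8 had -0.07 in replicates 5 and 6 but -0.23 in replicate 4. Chromosome 2 had 0.08 to 0.09 in all 3, with 40 genes higher (5.2%) and 10 lower (1.3%) in replicates 5 and 6. The remaining chromosomes other than Y lay between -0.05 and 0.05 on each array. In knock-outs the shifts were opposite, with 0.16 for chromosome 1, 0.12 for chromosome 14 and -0.14 for chromosome 11. Outside chromosomes 1, 8, 11, 14 and Y, 7305 genes, those of chromosome 2 included, gave 227 higher and 167 lower in replicates 5 and 6. In replicates 4 to 6 they gave 33 and 61. Whether these cultures differed in chromosome number was not tested.

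**Figure D5:**
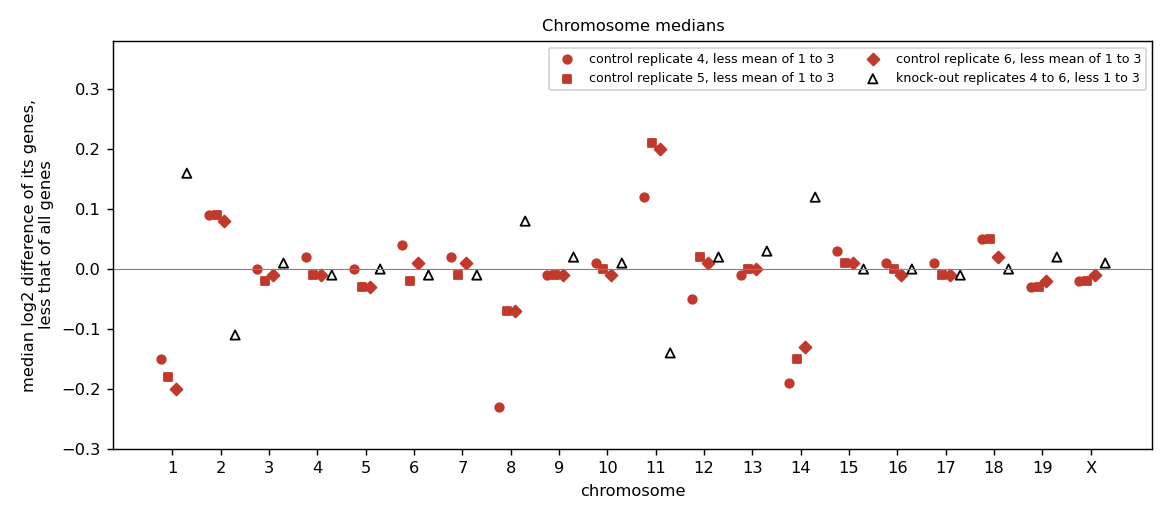
For each chromosome other than Y, the median log2 difference of its genes from the mean of control replicates 1 to 3, less that of all genes, in control replicates 4 (circles), 5 (squares) and 6 (diamonds). Triangles give knock-out replicates 4 to 6 less 1 to 3. Chromosome 11 lies above 0 in the controls (0.12, 0.21 and 0.20) and chromosomes 1 and 14 below, with the knock-out values on the opposite side.

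Htt itself had 7.45, 8.25 and 8.05 in control replicates 4, 5 and 6, against 8.01, 8.14 and 8.16 in replicates 1, 2 and 3 (-0.19 ± 0.21, adjusted p = 0.76). Without replicate 4 the difference was 0.05 ± 0.18. The knock-out arrays read 6.67 to 7.39, a signal that this probe set keeps in cells recorded as null. Lrp2, an endocytic receptor of the primitive endoderm list that binds to cubilin, had 7.53, 7.41 and 7.37 against 8.97, 8.77 and 8.97. The sets did not overlap, yet its main probe set was not called (-1.46 ± 0.36, adjusted p = 0.0775), while a second probe set was (-1.63, adjusted p = 0.00747).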

How the data were processed

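The values were the log2 expression values that the authors deposited for 24 Affymetrix mouse genome expression arrays, made with GCRMA per the submitters' processing notes, with no version in the sources used here. GCRMA includes a sequence-based background step, normalization between arrays and a summary per probe set. Which arrays it was run on together is not stated. Groups followed titles and genotypes. AFFX probe sets (64) were left out, and 17980 of 45037 others (39.9%) passed a filter of log2 5 on at least 3 arrays. Platform annotation named 1 gene for 34945 probe sets, several for 932 and none here for 9160. Symbols and chromosomes came from a RefSeq table of GRCm38.p6.

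Control and knock-out arrays entered 1 limma fit (limma 3.58.1, R 4.3.3) with 4 set means, leaving 8 residual degrees of freedom. All adjusted p-values are from its two-sided moderated tests, with the Benjamini-Hochberg method over all 17980 probe sets, at a threshold of 0.05. Replicates 5 and 6 were compared in the same fit without control replicate 4. With 3 arrays against 3, an exact permutation test of 1 gene cannot go below p = 0.1 and was not used. Tested on simulated data of 17980 probe sets, the fit of replicates 4 to 6 recovered 32%, 82%, 100% and 98% of changes of 0.5, 1, 2 and 3 in log2, and that of replicates 5 and 6 recovered 18%, 68%, 100% and 98%. The simulated noise was independent between arrays, without the shortfall of replicate 4 or the mirrored knock-out change. These rates therefore need not hold for the data. The number of arrays limits the precision.

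The members and the 36 gene lists were chosen with earlier results of these data known. Named genes were the 12 largest rises and falls past the threshold with no overlap between sets (an uncharacterised symbol added the next gene), 5 each way for replicates 5 and 6 and for the difference from knock-outs, the 5 largest statistics, the list members with the smallest p, and Htt, Lrp2, Mest, Pou5f1, Sox2 and Nanog. Of the largest falls, 1 gene is not reported here. Other called list members were named after their values were seen. Alternatives were other scalings, filters, array weights, arrays in the fit, and leaving out each array. The average of both set changes, the positions of replicate 4 and the counts by chromosome were added after seeing the data.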

Additional observations from a re-analysis of the deposited data

Results flagged for a closer look

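In the 6 controls, replicate 4 lay far from the others for the median of tested probe sets (8.25), their mean (8.39) and Htt (7.45). Chance alone sets an array apart in this way in about 1 of 20 groups for a single measure chosen beforehand. That rate does not carry over here, because the low signal of replicate 4 was already known. The median and mean summarize the same probe sets. Htt lies at levels (7.38 to 8.54) where replicate 4 was lower by a median of 0.29, so the 3 are not separate observations.

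The control and knock-out set changes (replicates 4 to 6 less 1 to 3) differed at 1402 probe sets by a test of the difference itself. Because both changes were near mirror images (r = -0.86), this difference largely repeats the control change at a larger size (SD 0.55 against 0.29). Its count is therefore not separate evidence beside the control change. The most positive differences were 7.34 for Dppa3, 4.85 for Pnma5, 4.47 for Aass, 4.06 for Uba1y and 3.91 for Nrp2. The most negative were -3.95 for Krt19, an intermediate filament gene of epithelia, -3.87 for Pdgfc, -3.50 for Slc39a8, -3.40 for Sox1 and -3.40 for Cpe. Krt19 had 3.28, 6.82 and 6.73 in control replicates 4, 5 and 6, against 7.27, 7.78 and 7.51 in replicates 1, 2 and 3. Neither its control change (adjusted p = 0.249) nor its knock-out change (adjusted p = 0.265) was called. Without control replicate 4 its difference was -2.78, smaller in size than those of Pdgfc (-3.86) and Slc39a8 (-3.53).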

How the results depend on the processing

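The counts of probe sets were most sensitive to which arrays entered the fit, and the cause was not tested. Replicates 4 to 6 against 1 to 3 gave 263, against 15 with all 24 arrays, 59 with the controls alone and 3456 with array weights, which gave control replicate 4 a weight of 0.161. Leaving out 1 control array gave 78 to 1105. Replicates 5 and 6 against 1 to 3 gave 1105, against 30 with all 24 arrays, 1903 with array weights and 331 to 585 leaving out 1 array. The difference of the set changes gave 1402, against 295, 4205 with weights, and 851 to 2537 leaving out 1 array. The knock-out sets gave 175, against 14, 707 with weights, and 59 to 132. The average of both changes gave 0, and 1 without control replicate 4 (0 to 1 leaving out 1 array). Other scalings and filters kept each count within 1.5 times, and no named gene reversed in any alternative run.

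No paired analysis was possible for the control sets because they share no replicate number. Across control and knock-out arrays, same-numbered deviations from the set means correlated from -0.14 to 0.16. Within the sets the numbers thus showed no clear pairing. As the set means were removed first, this cannot tell whether same-numbered arrays were handled together. The replicate block gave 781 probe sets for the difference of the set changes.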
